A study of Arabidopsis thaliana with 12 samples.

Results

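Expansins are proteins of the plant cell wall that let the wall extend without cutting its polymers. They act best when the wall is acid, as it becomes where proton pumps of the plasma membrane are active, and they are known for their part in the acid growth that auxin drives. The family has alpha and beta expansins and a smaller set of expansin-like proteins, and many members are used in particular tissues. EXPA7 and EXPA18 are alpha expansins of root hair cells, and EXPA4, EXPA8 and EXPA15 are alpha expansins for which no single cell type is given here.

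The transcripts described are those of EXPA4 (AT2G39700), EXPA8 (AT2G40610), EXPA15 (AT2G03090), EXPA7 (AT1G12560) and EXPA18 (AT1G62980), 5 genes of the 9161 tested. Members were taken as the probe sets annotated to these gene symbols, 1 for each gene among 22810 probe sets on the array, and all 5 passed the filter on low values, which kept the upper 69% of named probe sets. The genes had been selected on their level, amplitude and peak time in these same samples, so those 3 quantities are given as a description with no test. The filter used the mean over all times and favoured no time.

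Every sample was of whole seedlings of wild-type Arabidopsis, ecotype Col-0, that carried the CCR2::LUCIFERASE reporter. Plants spent 7 d in cycles of 12-h light and 12-h dark and were then released into constant white light at the same temperature. Tissue was frozen every 4 h at 24, 28, 32, 36, 40, 44, 48, 52, 56, 60, 64 and 68 h in constant light, and each time had 1 ATH1 array and no replicate. Circadian time (CT) is counted here in hours from subjective dawn, with CT0 at 24 h and at 48 h, so that the second cycle covers 48 to 68 h and the first covers 24 to 44 h.

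The values are linear intensities in arbitrary units, already on a common scale in the deposited table, and array medians lay between 149.9 and 153.6. Each SE below starts from how far the 12 values of a gene lay off its fitted curve, a 24-h curve with a linear trend or, for values per cycle, a curve for each cycle, and was moderated in limma with the spread of all tested genes. With so few arrays the precision is limited. In the same table the green-tissue genes LHCB4.1, LHCB4.2, LHCB4.3 (light harvesting) and RCA (Rubisco activase) and the root beta-glucosidase gene PYK10 were present, with mean intensities between 345.2 and 10057, while the pollen gene ANX2 averaged 28.9. None of the 5 root hair markers on the list used here had a named probe set, so the root hair content of the samples could not be checked. Fewer cells of a type and less RNA per cell cannot be told apart in whole seedlings. The scan fell on 3 days, with 28 h the only array of its day, 56 to 68 h together on another, and the other 7 arrays on the first.

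EXPA8 had the widest daily range of the 5 transcripts and was highest in the middle of the subjective day. Its intensities were 670.1, 969, 1066, 528, 391 and 305 at 24 to 44 h and 402, 1052, 937, 545, 333 and 422 at 48 to 68 h. The 4 values at CT4 and CT8 lay between 937 and 1066, and the other 8 lay between 305 and 670.1. The choice of genes by amplitude and peak time favours such a separation, and its share over all tested genes was not counted. The fitted amplitude, from the mean of the curve to its peak, was 0.84 ± 0.09 on the log2 scale (SE, n = 12 times), a fitted ratio of peak to trough of 3.22. The fitted peak fell at CT6.10 ± 0.387 h (SE). Across all tested genes the median log2 amplitude was 0.0878, and 20 genes, EXPA8 among them, had an amplitude as large as that of EXPA8, or 0.218% of the genes.

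The EXPA8 profile was more alike between cycles at its crest than around dawn. At CT0 it had an intensity of 402 in the second cycle and 670.1 in the first. At CT20 the order was reversed, with 422 in the second cycle and 305 in the first. At CT12 the intensities were 545 in the second cycle and 528 in the first. A separate curve for each cycle gave log2 amplitudes of 0.81 ± 0.12 in the second cycle and 0.90 ± 0.12 in the first, with peaks at CT6.29 ± 0.568 h and CT5.87 ± 0.512 h (SE). The test of a difference in the curve between the cycles, which the choice of genes did not use, gave an adjusted p of 0.945 in limma. Of all tested genes, 4 passed that test, or 0.0437%, and 877 did so at an unadjusted p under 0.05, and none of the 5 expansins passed it.

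**Figure D1:**
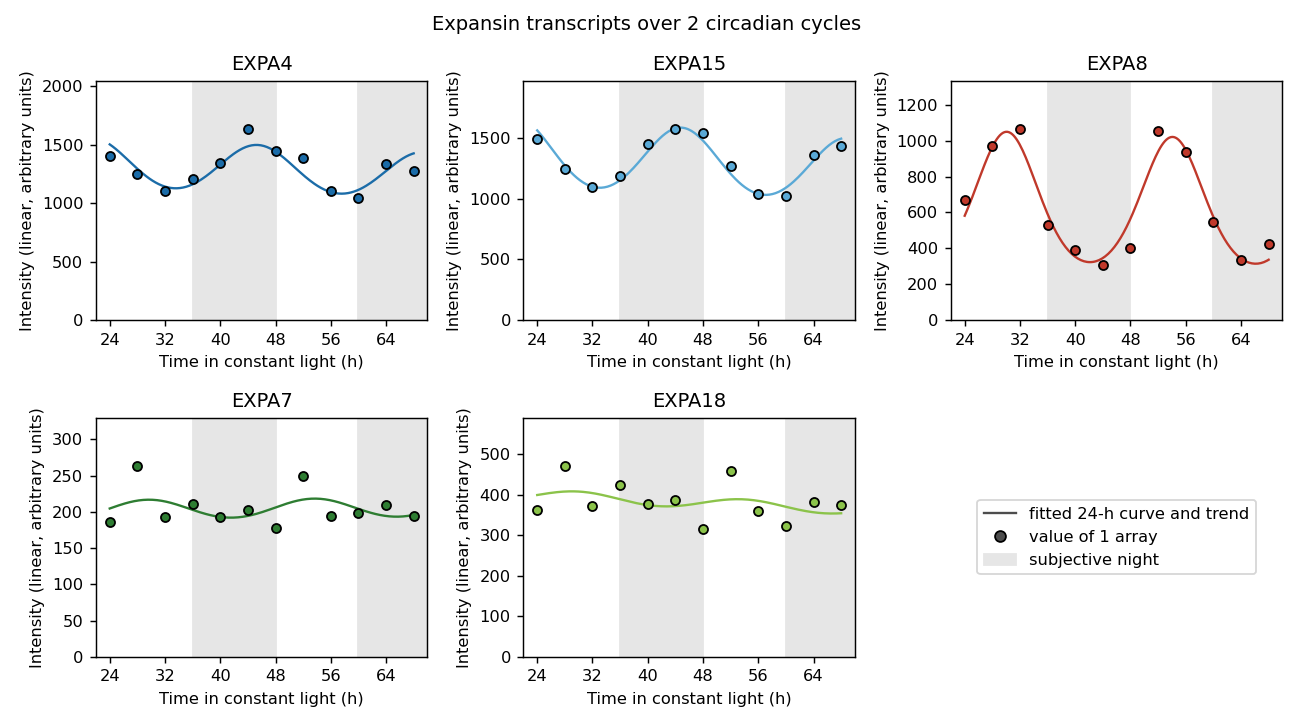
Linear intensity (vertical axis, arbitrary units, starting at 0) of the 5 expansin transcripts against time in constant light (horizontal axis, h). Points are single arrays, lines are the fitted 24-h curve with its trend, and grey marks the subjective night. EXPA8 reached 1066 at 32 h and 1052 at 52 h, EXPA4 and EXPA15 were lowest between 32 and 36 h and between 56 and 60 h, and EXPA7 and EXPA18 each had single high points at 28 h and 52 h.

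EXPA15 was highest across the late subjective night and dawn. EXPA8 was low at CT16 and CT20, but at CT0 it had 670.1 at 24 h, above its mean of 575.7, and 402 at 48 h. The EXPA15 intensities were 1493, 1244, 1092, 1184, 1447 and 1575 at 24 to 44 h and 1539, 1266, 1036, 1019, 1357 and 1433 at 48 to 68 h. All 6 values at CT16, CT20 and CT0 lay between 1357 and 1575, both values at CT4 lay between 1244 and 1266, and the 4 values at CT8 and CT12 lay between 1019 and 1184. These 3 sets did not overlap, which the choice of genes again favours. The share of all tested genes with such a separation was not counted, and nothing is read from it. The fitted log2 amplitude was 0.29 ± 0.03 with a peak at CT20.9 ± 0.493 h (SE), and the fitted ratio of peak to trough was 1.50. The 24-h curve with its trend held 93.6% of the variance of log2 EXPA15, against 89.3% for EXPA8.

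EXPA4 followed nearly the same course as EXPA15 with a smaller fitted amplitude. The highest of the 12 values was 1.57 times the lowest in EXPA4 and 1.55 times in EXPA15. The following values are those of EXPA4. Intensities were 1404, 1252, 1107, 1204, 1345 and 1636 at 24 to 44 h and 1450.0, 1385, 1103, 1043, 1332 and 1279.6 at 48 to 68 h. The 4 values at CT8 and CT12, between 1043 and 1204, lay below the other 8, which the choice of genes likewise favours. Its share over all tested genes was not counted either. The values at CT4, 1252 and 1385, lay within or just under the range of 1279.6 to 1636 seen at CT16, CT20 and CT0, so the fall after dawn was less sharp than that of EXPA15. The fitted log2 amplitude was 0.22 ± 0.04 with a peak at CT21.4 ± 0.853 h (SE), a fitted ratio of peak to trough of 1.35, and the curve held 74.3% of the variance.

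Over the 12 times, log2 EXPA4 and EXPA15 had a Pearson r of 0.92 and a Spearman rho of 0.95, and r was 0.90 without 44 h and 60 h, the times farthest from the median of EXPA4. EXPA8 and EXPA15 had r = -0.63 and rho = -0.62, with r = -0.61 without 32 h and 52 h. These are descriptions over 12 arrays that both genes share, with no test. The fitted peak of EXPA15 came 9.24 h before that of EXPA8, and the peaks of EXPA15 and EXPA4 were 0.540 h apart, less than the standard error of the EXPA4 peak and close to that of the EXPA15 peak.

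Per cycle, the EXPA15 curve had a log2 amplitude of 0.31 ± 0.05 in the second cycle and 0.27 ± 0.05 in the first, with peaks at CT21.8 ± 0.603 h and CT20.5 ± 0.685 h (SE). EXPA4 had an amplitude of 0.21 ± 0.06 in the second cycle and 0.24 ± 0.06 in the first, with peaks at CT23.2 ± 1.07 h and CT20.5 ± 0.910 h. Both peaks were later in the second cycle, but the test of a difference between cycles in limma gave an adjusted p of 0.788 for EXPA15 and 0.720 for EXPA4. When the period was left free, the best fit came at 25.2 h for EXPA15, 26.8 h for EXPA4 and 24.0 h for EXPA8, a description chosen after the values were seen.

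**Figure D2:**
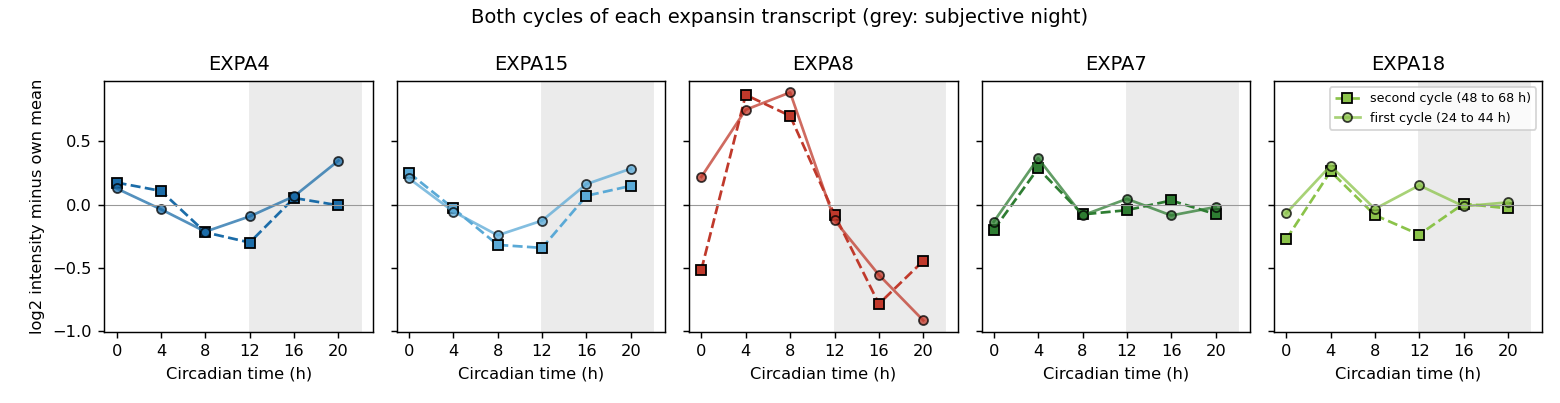
Log2 intensity minus each gene's own mean (vertical axis) against circadian time (horizontal axis, h) for the second cycle (squares, broken line) and the first cycle (circles, full line), 1 array per point. Grey marks the subjective night. Both cycles of EXPA7 and of EXPA18 have their highest point at CT4, and the EXPA8 cycles are farthest apart at CT0, at 402 in the second cycle and 670.1 in the first.

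The root hair expansins EXPA7 and EXPA18 were highest at the same single time of day in both cycles. EXPA7 had intensities of 186, 264, 193, 211, 193 and 202 at 24 to 44 h and 178, 249.7, 194, 198, 209 and 194 at 48 to 68 h. EXPA18 had intensities of 363, 472, 372, 424, 378 and 386 at 24 to 44 h and 315, 458, 359.8, 323, 383 and 373 at 48 to 68 h. For both genes the 2 highest of the 12 values were those at 28 h and 52 h, the only harvests at CT4, and for both the lowest was that at 48 h, 4 h earlier than the second high value.

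The CT4 values of EXPA7, 264 and 249.7, lay above all 10 others, which ranged between 178 and 211 with a geometric mean of 196. That is 1.31 times the level at the other times, a log2 difference of 0.39 where the SD of the other 10 values was 0.07. For EXPA18 the CT4 values, 472 and 458, were 1.27 times the geometric mean of 367 at the other times, where values ranged between 315 and 424. The log2 difference was 0.34 and the SD of the other 10 values was 0.12. The step between the lower CT4 value and the highest other value, at 36 h in both genes, was 0.24 for EXPA7 and 0.11 for EXPA18 on the log2 scale.

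This pattern was noticed after the values were seen and is given with its background and no test. The 2 highest values fell at 28 h and 52 h for 344 of 9161 tested genes, or 3.76%, and at any 1 circadian time for 1252, or 13.7%. A step at least as large as that of EXPA7 was found in 7 genes, EXPA7 included, and one at least as large as that of EXPA18 in 57. Of the 15 expansins tested, only EXPA7 and EXPA18 had their 2 highest values at CT4, and no other of the 15 had them at any 1 circadian time. Because 28 h was the only array of its scan day, the first high value and the scan day cannot be told apart. Among the 7 arrays of the first scan day 52 h was highest, by the same 0.24 for EXPA7 and 0.11 for EXPA18. The values at 52 h and 36 h that set these steps were both from that day, so this is no separate check. With quantile normalization the steps were 0.22 and 0.08.

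A 24-h cosine described little of either profile. The fitted log2 amplitude was 0.09 ± 0.07 for EXPA7 with a peak at CT5.61 ± 2.52 h, and 0.05 ± 0.07 for EXPA18 with a peak at CT5.85 ± 5.26 h (SE, n = 12 times). The curve with its trend held 16.7% of the variance of EXPA7 and 13.5% of that of EXPA18. A 24-h cosine is wide by construction and cannot follow a high value at 1 harvest of the 6 in a cycle, and harvests 4 h apart do not show how long such a rise lasted. The test of a difference between cycles in limma gave an adjusted p of 0.981 for each gene.

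EXPA7 and EXPA18 had similar profiles over the 12 times, less closely so outside the CT4 harvests. Their Pearson r over the 12 times was 0.88 with a Spearman rho of 0.82, and r was 0.71 over the other 10 times. In both genes 36 h was the highest of the remaining times, at 211 and 424, and 48 h the lowest, at 178 and 315. Both arrays weigh heavily in the r over the other 10 times, which was not computed without them. At 60 h EXPA18 was near its lowest, at 323.4, while EXPA7, at 198.5, was not. The root marker PYK10, which stands for root tissue as a whole, had r = 0.24 with EXPA7 and r = 0.06 with EXPA18, and r = -0.60 and r = -0.59 without 28 h and 52 h. PYK10 intensities lay between 9081 and 10840.5 and were 10294 at 28 h and 10840.5 at 52 h, where 48 h had 10681. All of these values share the same 12 arrays.

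**Figure D3:**
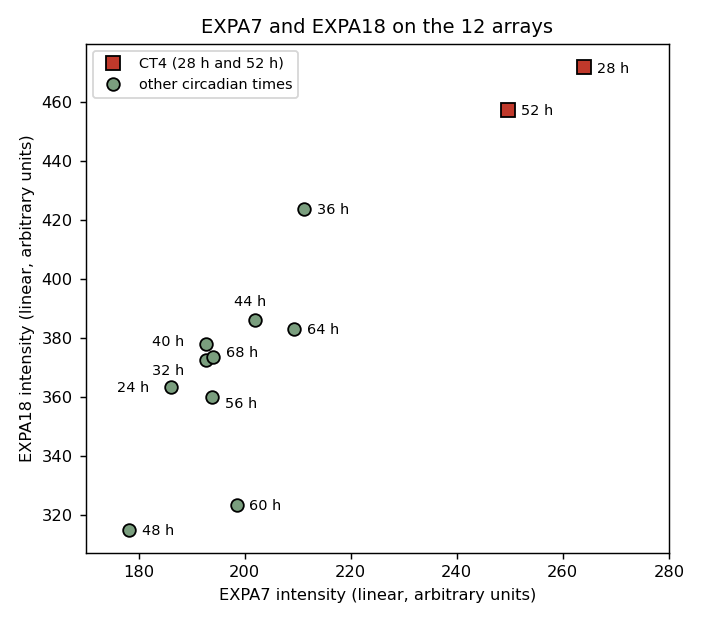
EXPA18 intensity (vertical axis, arbitrary units) against EXPA7 intensity (horizontal axis, arbitrary units), 1 point per array labelled with its time in constant light. Neither axis starts at 0. The squares at 28 h and 52 h (CT4) stand apart at the upper right. Among the other 10 arrays 48 h is lowest and 36 h highest for both genes.

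The genes with the profiles most like those of the root hair expansins were also high at CT4, which the way of picking them favours. The values at 28 h and 52 h lay farthest off in EXPA7 and EXPA18 and so weigh most in r. Likeness was the Pearson r of log2 intensity over the 12 times, among all tested genes outside the 5, and the 3 highest were taken for each. For EXPA7 they were AT1G30870 (r = 0.876), AT5G17820 (r = 0.870) and AT3G27930 (r = 0.838). For EXPA18 they were AT1G30870 again (r = 0.885), GH9C1, a glycosyl hydrolase (r = 0.868), and AT5G04960 (r = 0.862). AT1G30870 had intensities of 617 at 28 h and 639 at 52 h, with 415 to 500.3 at the other times. AT5G17820 had 1430.4 and 1440.0, with 1038 to 1225 elsewhere, and GH9C1 had 279 and 331, with 210.4 to 272 elsewhere. None of these was rhythmic in the 24-h fit, with adjusted p in limma of 0.511 for AT1G30870, 0.151 for AT5G17820 and 0.834 for GH9C1. The genes given by locus alone have no symbol in the annotation used here.

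For EXPA8 the 3 nearest profiles were those of AT5G62280 (r = 0.965), AT3G07350 (r = 0.964) and AT4G01330 (r = 0.956). Their fitted peaks lay at CT6.65, CT6.01 and CT6.00, and their log2 amplitudes were 0.77 ± 0.07, 0.24 ± 0.04 and 0.29 ± 0.04 (SE). EXPA4 was nearest to AT1G05170 (r = 0.934), AT3G57880 (r = 0.915) and AT5G51440 (r = 0.909), and EXPA15 to AT5G42760 (r = 0.942), AT1G05170 (r = 0.938) and AT1G06000 (r = 0.935). AT1G05170 was thus on both lists, and the fitted peaks of these 5 genes lay between CT20.8 and CT22.2. AT1G06000 had a log2 amplitude of 0.55 ± 0.04. The r of each nearest gene is the highest over all tested genes and is a description.

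No linear drift over the sampled days passed the test for any of the 5 expansins. The linear trend, which the choice of genes did not use, was -0.08 log2 per day for EXPA15 (95% interval -0.18 to 0.02, adjusted p = 0.464 in limma), -0.06 for EXPA4 (-0.18 to 0.07, adjusted p = 0.698) and -0.04 for EXPA8 (-0.28 to 0.20, adjusted p = 0.905). EXPA7 had a trend of 0.01 (-0.17 to 0.19, adjusted p = 0.978) and EXPA18 of -0.07 (-0.26 to 0.12, adjusted p = 0.750). The intervals leave room for a change of up to 0.28 log2 per day in EXPA8. Over all genes 2 of 9161, or 0.0218%, passed this test.

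Of the rest of the family, 1 gene passed the rhythm test. Of 36 expansins and expansin-like genes on the list used, 18 had a probe set with that name alone and 15 were tested, of which 9 are alpha expansins, 3 beta expansins and 3 expansin-like. A further probe set shared by EXPA23 and EXPA25 was left out, and EXPA24, EXPB5 and EXLA3 lay below the filter with mean intensities of 51.0, 74.0 and 51.7. Of the 10 tested genes outside the 5, 1 passed the rhythm test in limma, against 1012 of 9161 genes, or 11.0%. For the 5 expansins the same call, which their choice used, was made for EXPA4, EXPA8 and EXPA15, and nothing is read from it.

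EXPB3, a beta expansin, was the rhythmic one. Its intensities were 2497, 1988, 1775, 1638, 1754 and 2268 at 24 to 44 h and 1923, 1831, 1521, 1423, 1695 and 1771 at 48 to 68 h. Its log2 amplitude was 0.23 ± 0.04 with a peak at CT22.3 ± 0.658 h (SE, adjusted p = 0.00252 in limma), and the p stayed between 0.00105 and 0.0189 under the 20 alternative settings. EXPB3 was lower in the second cycle than in the first at 6 of 6 circadian times, with a trend of -0.21 ± 0.05 log2 per day that did not pass the test across all genes (adjusted p = 0.119). Its profile had r = 0.77 with EXPA4, or 0.58 without 44 h and 60 h, and r = 0.74 with EXPA15, or 0.54 without 56 h and 60 h.

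The other 9 did not pass. EXPB1 came nearest, with a log2 amplitude of 0.18 ± 0.05, a peak at CT1.32 and an adjusted p of 0.0508 in limma. It passed under 5 of 20 alternative settings. EXPB2 (adjusted p = 0.0762, and 0.0151 without 40 h, the 1 alternative under which it passed) had its fitted peak at CT18.5 and EXLA1 (0.0988) at CT7.03, and EXLB1 (0.237), EXPA20 (0.383), EXPA9 (0.541), EXPA21 (0.581), EXPA16 (0.598) and EXLA2 (0.882) were farther from the threshold. EXLA1 was the expansin with the profile most like that of EXPA8 (r = 0.69, rho = 0.59, and r = 0.67 without 32 h and 52 h). EXLB1 and EXPA16 had the steepest rising trends of the tested expansins, 0.27 ± 0.08 and 0.26 ± 0.09 log2 per day, which did not pass (adjusted p = 0.194 and 0.230 in limma). Their values at 52 h were 1317 for EXLB1 and 195 for EXPA16, where 28 h had 877 and 126, so neither shared the repeated rise of EXPA7 and EXPA18. Peak times of expansins with small amplitudes were poorly placed, with a standard error of 5.26 h for EXPA18 and 5.34 h for EXLA2.

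**Figure D4:**
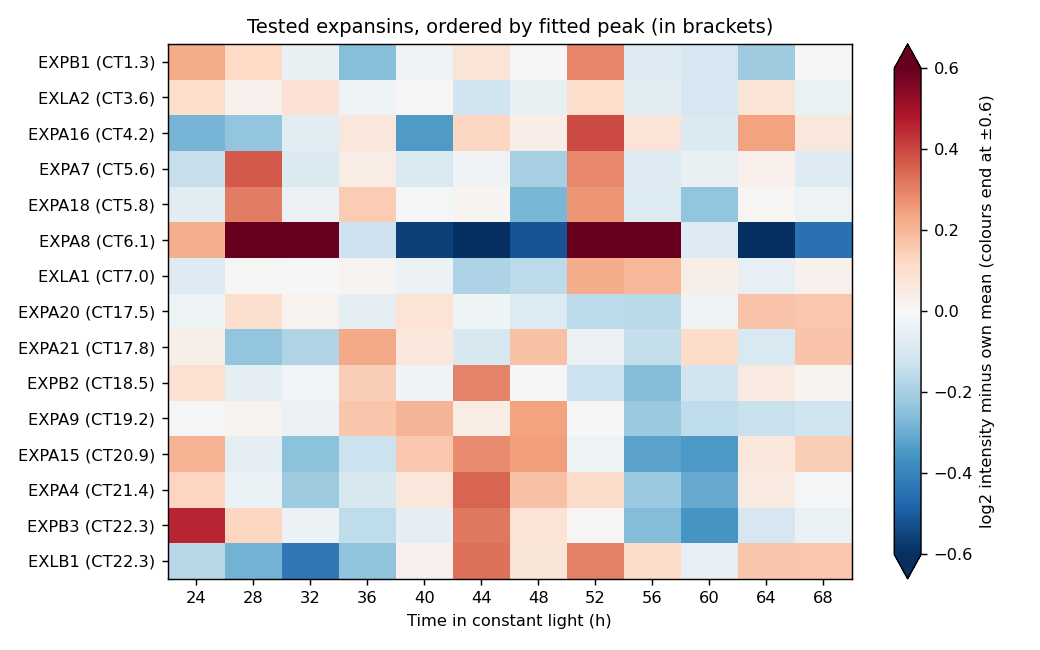
Log2 intensity minus each gene's own mean (colour, red above and blue below, with colours ending at 0.6 in both directions) for the 15 tested expansins (rows, ordered by fitted peak) against time in constant light (columns, h), 1 array per column. EXPA15, EXPA4 and EXPB3 share red columns around 44 h and blue ones around 56 to 60 h, and EXPA7 and EXPA18 share red at 28 h and 52 h.

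**Figure D5:**
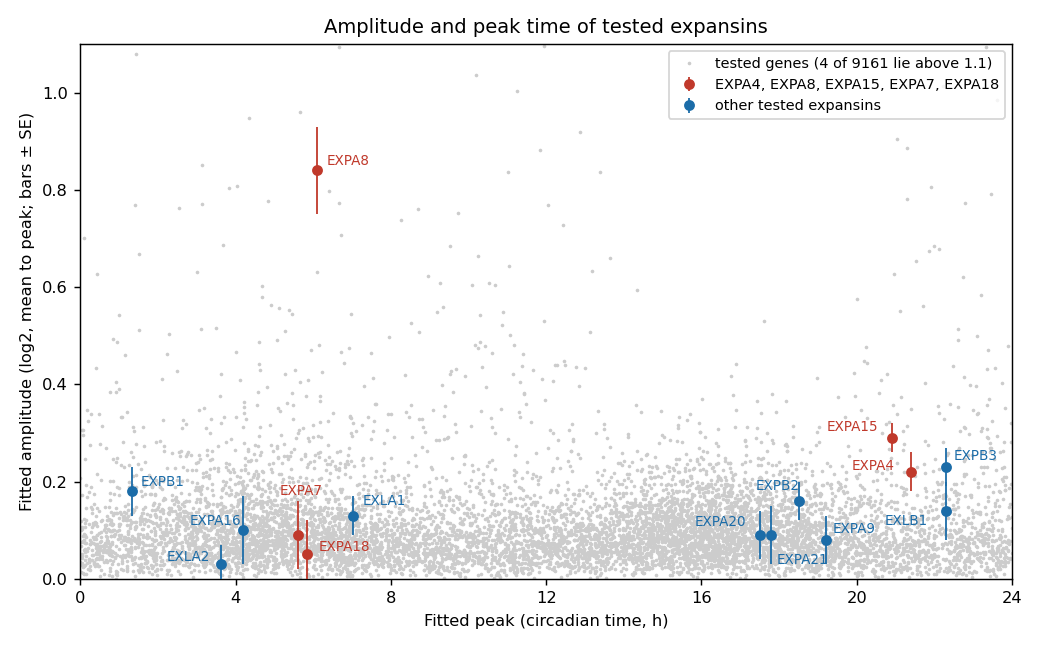
Fitted log2 amplitude from mean to peak (vertical axis, bars are SE) against fitted peak in circadian time (horizontal axis, h) for the 5 expansins in red, the 10 other tested expansins in blue and all tested genes in grey, of which 4 lie above the axis. EXPA8 stands at 0.84 and CT6.10, while EXPA15, EXPA4 and EXPB3 lie between 0.22 and 0.29 late in the subjective night.

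Other genes of wall growth were thinly covered by named probe sets. Xyloglucan endotransglucosylase/hydrolases (XTHs), enzymes that cut and rejoin xyloglucan chains in the wall, had 8 tested genes of 33 on the list, and 2 passed the rhythm test that 11.0% of all tested genes passed. XTH32 had a log2 amplitude of 0.39 ± 0.05 and a peak at CT0.996 ± 0.529 h (SE, adjusted p = 0.000949 in limma), between the fitted peaks of EXPA15 and EXPA8. Its trend of -0.29 ± 0.07 log2 per day did not pass (adjusted p = 0.119), and it was lower in the second cycle than in the first at 6 of 6 circadian times. XTH27 had an amplitude of 0.17 ± 0.04 and a peak at CT4.31 (adjusted p = 0.0479), a call lost under 16 of 20 alternative settings, where the adjusted p reached 0.128.

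Of 42 root hair genes on the list, 4 were tested beside EXPA7 and EXPA18, and none passed. With 11.0% of all tested genes called, no count of 0 among so few genes sets these lists apart. FER, a receptor kinase of cell growth, had an adjusted p of 0.202 in limma, and SCN1, which restricts where hairs form on the cell, one of 0.345. CSLD2 had 0.922 and XTH26 had 0.845. None of these 4 had its 2 highest values at 28 h and 52 h. Of all tested genes 3.76% did, so a count of 0 among 4 genes does not set them apart. CSLD2 was highest at 52 h, at 450.4, but had 400.6 at 28 h against 440.9 at 44 h. XTH26 had 102.8 at 28 h and 108.0 at 52 h against 122.1 at 32 h, and FER and SCN1 were also higher at 32 h than at 28 h or 52 h. Of 14 pectin methylesterases on the list, 2 were tested under such a name, PME41 (adjusted p = 0.119 in limma) and PME35 (0.737). Neither passed, and family members known by locus alone were not looked for. Of 35 growth regulators, 3 were tested and none passed. HAT2, an auxin-induced homeobox gene, had a fitted peak at CT6.82 and an adjusted p of 0.0652 in limma, and passed under 3 of 20 alternative settings (lowest adjusted p 0.0397). BIM1, a partner of brassinosteroid transcription factors, had an adjusted p of 0.0802 and passed under 1, without 36 h (0.032). None of 17 cellulose synthesis genes and none of 11 plasma membrane proton pumps had a named probe set, so they were not analysed here.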

How the data were processed

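Whole seedlings were sampled at 12 times and measured on 1 array each. The authors deposited linear intensity values for 22810 probe sets, already on a common scale. The submitters' notes name MAS5 and the methods name dChip for expression, and none of the sources used here says which of them gave the deposited values. Of the other information that the authors deposited (array records), scan day alone was used. GEO's platform annotation gave 13513 probe sets 1 symbol, 503 several and 8794 none, and symbols were updated through RefSeq.

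Intensities below 1 were set to 1, log2 was taken, the upper 69% of named nuclear probe sets by mean were kept, and 1 probe set per gene with the highest mean was fitted with a 24-h cosine, sine and trend (8 residual degrees of freedom) in limma 3.58.1 (R 4.3.3). Tests used the moderated F or t statistic with Benjamini-Hochberg adjustment over 9161 genes at 0.05. A fit with a curve for each cycle tested the difference between cycles. As no time was replicated, each p value reflects scatter about the fitted curve.

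Members and gene lists were chosen with earlier results of these data known. Named genes were the 5 expansins, every other expansin with a named probe set, up to 3 rhythmic genes by amplitude (otherwise 2 by level) of each other list, and for each expansin the 3 genes with the highest r. All tested root hair genes are named as well. The fits were tested on simulated data. Alternatives covered the filter, scaling, trend, period, scan day and each time left out. No sequences were printed, since no sequence table was used here. Python 3.11.15, numpy 2.4.6, pandas 2.3.3, scipy 1.17.1 and matplotlib 3.10.9 did the rest.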

Additional observations from a re-analysis of the deposited data

How the results depend on the processing

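Under the alternatives, the log2 amplitudes of the 5 expansins moved by less than the scatter around their curves: 0.795 to 0.893 for EXPA8, 0.260 to 0.306 for EXPA15, 0.181 to 0.254 for EXPA4, 0.0430 to 0.142 for EXPA7 and 0.0230 to 0.0890 for EXPA18. Peak times stayed between CT20.5 and CT21.2 for EXPA15 and between CT20.5 and CT21.7 for EXPA4. The EXPA8 peak lay at CT7.36 with a period of 22 h, CT5.10 with 26 h and CT5.56 without 48 h. Those of EXPA7 (CT9.01 with scan day as a block, CT8.39 without 52 h) and EXPA18 (CT10.8 with scan day as a block, CT14.1 without 52 h) were loosely held. The rhythm call of EXPA4, which its choice used, was lost with a period of 22 h and under no other alternative. No trend of the 5 passed under the alternatives that fitted one, and no difference between cycles under the 5 in which it was run (no filter, upper 50%, 32 added, quantile normalization, scan day as a block). EXPB1 passed the rhythm test without a trend, in the upper 50%, with 32 added, and without 40 h or 48 h (adjusted p in limma 0.0224 to 0.198 over the alternatives), EXPB2 without 40 h (0.0151 to 0.246), HAT2 without a trend, in the upper 50% and without 40 h (0.0397 to 0.169), and BIM1 without 36 h (0.032 to 0.262). Of all genes, 1012 were rhythmic, 618 with no filter, 631 with a period of 26 h, and 614 to 1072 with 1 time left out, the lowest without 56 h. A linear trend was called for 2 genes, 22 in the upper 50%, 12 with 32 added, 9 with quantile normalization, 1 with a period of 22 h, 0 with scan day as a block, and 0 to 18 with 1 time left out, the highest without 40 h. A difference between cycles was called for 4 genes, 1 in the upper 50%, 1 with quantile normalization, and 0 with no filter or with scan day as a block. The cause of these changes was not tested. No paired analysis was possible because each time had 1 array and no replicate number.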

Other observations

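Ranked by the step between the lower value at 28 h and 52 h and the highest value at any other time, EXPA7 was seventh of the 9161 tested genes, and the 6 genes above it were AT1G30870 (log2 step 0.30), AT1G66760 (0.29), AT5G37690 (0.28), OCT1 (0.27), AT2G37750 (0.26) and AT2G47540 (0.25), against 0.24 for EXPA7. These genes were chosen after their values were seen. AT1G30870 was also the gene with the profile nearest to both EXPA7 and EXPA18. The 28 h array alone made up its scan day, and the part of that day in these steps was not tested. Among the 7 arrays of the first scan day 52 h was highest for EXPA7 and EXPA18, which follows from the steps themselves and is no separate check.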
